A study of Homo sapiens with 26 samples.

Results

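Macrophages sorted from day 14 Biowires that held fibroblasts and macrophages (FB+MF) were compared with macrophages sorted from day 14 Biowires that held macrophages alone (MF). The comparison takes 6 of the 26 samples of the series, n = 3 libraries per group, chosen by their labels and by no measured value, and it covers all genes of their count table. Biowires are engineered human cardiac microtissues. The macrophages came from hES2, an established human embryonic stem cell line, and are labelled wild type. The labels give FB without its long form, and it is taken to mean fibroblasts.

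Both groups had the same culture medium and the same preparation, per the labels' protocols. The tissues were digested for 40 min with enzymes and flavopiridol, a drug that blocks transcription, so that little new RNA is made while cells are freed. Cells were then sorted on CD14 and CD45, and total RNA was made into stranded libraries. The transcripts of CD14 and of PTPRC, which encodes CD45, therefore belong to proteins that the sort selected. Macrophages from Biowires that also held cardiomyocytes (CM+FB+MF, n = 3) are used below for comparison. Digested control macrophages labelled FB+MF and MF (n = 3 each, digested for 40 min, with no culture day stated) are set beside the Biowire comparison. Nothing states that the 3 libraries of a group came from separate cultures, so the p-values rest on the spread between libraries, which may be technical.

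Macrophages clear dying cells, lipoproteins and matrix, and they balance the cholesterol this brings in. When sterols accumulate, the nuclear receptor LXR switches on genes that export cholesterol, while low sterol activates SREBP2, the factor that drives cholesterol synthesis and uptake. Fibroblasts make the extracellular matrix and are a main source of CSF1, the growth factor that macrophages depend on.

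The FB+MF libraries held 10668086 to 12426918 counts and the MF libraries 8265064 to 13665322. The libraries numbered 1 stood apart from the other two of their group. In FB+MF the pairs with library 1 differed by a chi-square per degree of freedom of 23.0 and 25.1, against 5.45 between libraries 2 and 3. In MF the pairs with library 1 gave 30.2 and 25.1, against 8.31 between libraries 2 and 3. MF library 3 held transcripts of fibroblast genes although its label names macrophages alone. COL1A1, the main fibrillar collagen chain, had 0, 0.439 and 48.6 CPM (counts of the gene per 1e6 counts of the library) in MF libraries 1, 2 and 3.

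edgeR's quasi-likelihood test with Benjamini-Hochberg adjustment called 860 of 13952 genes (6.16%) at adjusted p under 0.05, and 562 of them (4.03%) were higher and 298 (2.14%) lower in FB+MF. These shares are the background for the counts of gene groups below, and the median log2 fold change of all genes tested was -0.01. The libraries of the groups did not overlap in 3338 genes (23.9%), among them 853 of the called genes (6.11%). A lack of overlap stated for a called gene below therefore adds little to its call. A fold change of 1 or more in size, on the log2 scale, was found for 389 of the called genes (2.79%). Without FB+MF library 2 the test called 549 genes (168 lower), without MF library 3 it called 553 (359 higher, 194 lower), and without FB+MF library 3 it called 189 lower. Fold changes are given as log2 of FB+MF over MF ± SE, with edgeR's adjusted p. The SE was derived as the size of the log2 fold change divided by the square root of the test's F statistic.

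**Figure D1:**
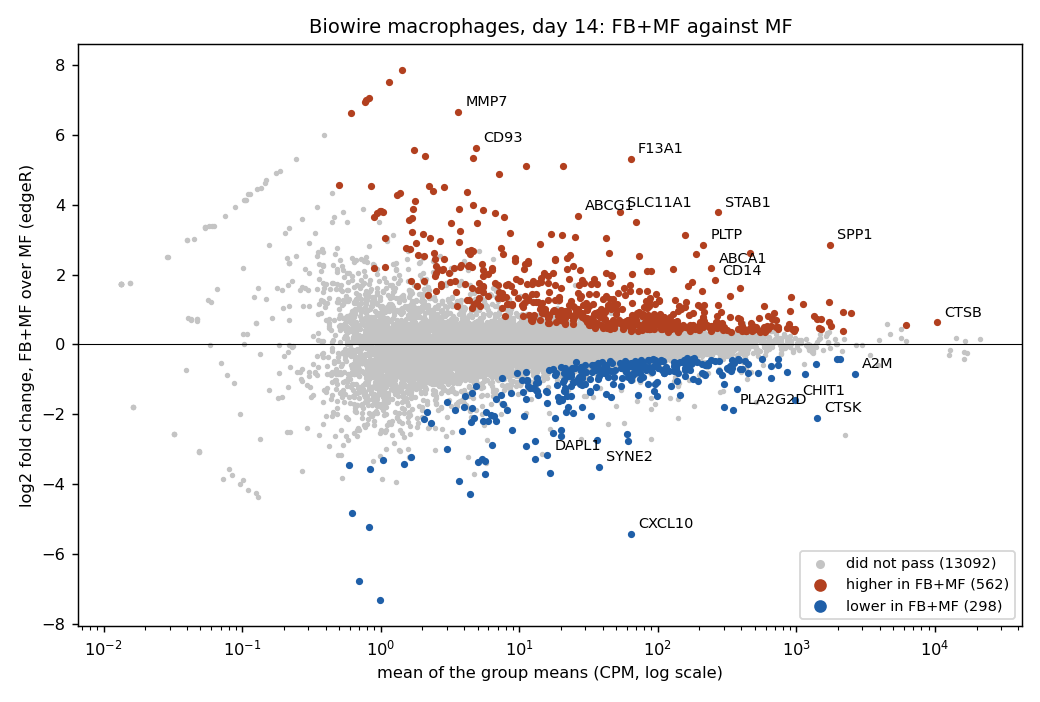
Mean of the FB+MF and MF group means in CPM (log scale) on the x axis against the log2 fold change of FB+MF over MF on the y axis, 1 point per gene tested. Red points are the 562 genes called higher in FB+MF, blue points the 298 called lower, and grey points did not pass. CTSB lies among the most abundant genes called higher, and CTSK and CHIT1 among the abundant genes called lower.

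The sorted cells carried macrophage transcripts in both groups. Of 20 macrophage marker genes, 10 rose and 0 fell (DESeq2 called 1 lower, as did an unadjusted p under 0.05), with a median log2 fold change of 0.53. The markers summed to 17869, 16315 and 16939.6 CPM in the FB+MF libraries, against 13179, 13601 and 11793 CPM in the MF libraries (two-sided exact permutation p = 0.1, which is as low as 3 against 3 libraries can reach). CD14, the co-receptor for bacterial lipopolysaccharide, had 346, 412 and 447 CPM in the FB+MF libraries, against 139, 118 and 86.5 CPM in the MF libraries. All 3 FB+MF libraries lay above all MF libraries (1.84 ± 0.17, adjusted p = 1.81e-05). PTPRC had 214, 225 and 249 CPM in FB+MF and 213, 258 and 237 CPM in MF, overlapping groups (-0.01 ± 0.10, adjusted p = 0.986). CSF1R, the receptor for CSF1, had 217, 282 and 300.3 CPM in FB+MF and 242, 153 and 109 CPM in MF, and the groups overlapped through MF library 1 (0.68 ± 0.23, adjusted p = 0.118). CSF1R passed without MF library 1 (1.09, adjusted p = 0.0014), when low counts were left unfiltered (0.69, adjusted p = 0.0172), and with libraries 2 and 3 of each group alone, a setting chosen after seeing the data (1.19, adjusted p = 4.45e-06). In these bulk samples, fewer cells of a type and less RNA per cell cannot be told apart.

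Markers of other cell types were measured in the same libraries. Of 16 cardiomyocyte markers 0 passed (1 at an unadjusted p under 0.05, 0 by DESeq2), 6 were at 0 in all 6 libraries, and the sum was 24.3 to 68.9 CPM in FB+MF and 48.8 to 78.5 CPM in MF. Fibroblast markers summed to 671 to 768 CPM in FB+MF and 531 to 657 CPM in MF (exact permutation p = 0.1, two-sided). SPARC was the most abundant gene of this sum. The log2 difference of the sums was 0.29 with SPARC and 0.92 without it. Of 12 fibroblast markers tested, COL1A2, COL3A1 and MFAP5 rose and 0 fell (0 at an unadjusted p under 0.05 and 0 by DESeq2). COL3A1 lies outside the rule for named genes and was picked after its value was seen. Without MF library 3, 7 fibroblast markers rose. Endothelial markers, mostly PECAM1, which macrophages also carry, summed to 418 to 489.7 CPM in FB+MF and 509 to 588 CPM in MF (exact permutation p = 0.1, two-sided). NKG7, a cytotoxic granule protein of lymphocytes, was the only lymphoid marker that passed the filter on low counts. It had 7.64, 6.0 and 10.4 CPM in FB+MF and 0.121, 0.512 and 0.486 CPM in MF (4.35 ± 0.55, adjusted p = 2.34e-04). Granulocyte and mast cell markers, mostly CSF3R, summed to 106 to 121 CPM in FB+MF and 79 to 80.9 CPM in MF, and the part of any of these markers in the results below was not tested.

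Many LXR target and cholesterol efflux genes rose in the macrophages that had shared the Biowire with fibroblasts. Of 19 LXR target and efflux genes tested, 11 rose and 0 fell (1 fell at an unadjusted p under 0.05, 0 by DESeq2), with a median of 0.65. ABCG1, which passes cholesterol to high-density lipoprotein, had 52.5, 55.7 and 39.4 CPM in the FB+MF libraries, against 2.90, 4.32 and 4.37 CPM in the MF libraries (3.68 ± 0.19, adjusted p = 1.02e-07). ABCA1, which loads lipid-poor apolipoproteins, had 328, 433 and 431 CPM in FB+MF, against 103, 87.9 and 78 CPM in MF (2.18 ± 0.15, adjusted p = 1.60e-06). The lowest FB+MF library lay above the highest MF library for both exporters. PLTP, a phospholipid transfer protein, had 291, 397 and 434 CPM in FB+MF, against 51.1, 56.8 and 50.2 CPM in MF (2.86 ± 0.14, adjusted p = 1.02e-07). NR1H3, which encodes LXR alpha itself, had 68.5, 64.6 and 60.6 CPM in FB+MF, against 28.2, 29.6 and 21.8 CPM in MF (1.31 ± 0.16, adjusted p = 1.53e-04). Both genes showed groups that did not overlap. The apolipoproteins moved less. APOE, which carries lipid out of macrophages, had 8021, 7073 and 6679.7 CPM in FB+MF, against 5373, 4801 and 4946 CPM in MF (0.56 ± 0.11, adjusted p = 0.00547), and APOC1 changed by 1.11 ± 0.13 (adjusted p = 1.63e-04). LPCAT3, which remodels membrane phospholipids, changed by 0.88 ± 0.12 (adjusted p = 6.27e-04).

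The ABCA1 promoter is shown because it holds a form of the LXR element, a direct repeat of a short site. The stretch lies 160 to 11 bases before the start site on the minus strand of chr9:104928166-104928315 (RefSeq, GRCh38.p14, a later build than the hg19 of the counts). Capitals mark the match to AGGTNA and NGGTCA with NNNN between them (N is any base), read on the opposite strand.
ABCA1: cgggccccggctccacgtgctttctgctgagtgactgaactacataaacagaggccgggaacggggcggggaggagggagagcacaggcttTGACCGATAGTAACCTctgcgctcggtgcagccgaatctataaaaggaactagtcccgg
On either strand this motif was present in 0.108% of the 10173 tested genes with a promoter in the RefSeq table, and among the 14 LXR target and efflux genes with one it was in ABCA1 alone. The motif was paired with ABCA1 for display and its free bases fit that site, so the match there was fixed in advance. The low share and the absence from the other listed genes therefore say nothing about other forms of the LXR element. A match is a run of letters and shows no binding.

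Several genes of cholesterol synthesis and uptake fell in FB+MF. Of 23 tested, 9 fell and 0 rose (0 rose at an unadjusted p under 0.05 and 0 by DESeq2), with a median of -0.54, and 2 of the 23 had a positive fold change. DHCR7, which catalyses the last step to cholesterol, had 21.6, 15 and 15 CPM in the FB+MF libraries, against 53, 31.5 and 34.4 CPM in the MF libraries (-1.17 ± 0.24, adjusted p = 0.0108). HMGCS1, an early enzyme of the mevalonate pathway, had 27.4, 22.2 and 29.7 CPM in FB+MF, against 51.9, 44.3 and 38.1 CPM in MF (-0.73 ± 0.17, adjusted p = 0.0169). SREBF2, which encodes SREBP2, had 152, 130.1 and 147 CPM in FB+MF, against 242, 204 and 193 CPM in MF (-0.54 ± 0.14, adjusted p = 0.0291). The groups did not overlap in any of these genes, but the margins were small. The count rests on single libraries, since 0 fell without FB+MF library 2, 1 without FB+MF library 3 and 1 without MF library 1. Adjusted p reached 0.0593 for DHCR7, 0.0981 for HMGCS1 and 0.155 for SREBF2 over the alternatives. CYP51A1 and LSS, later enzymes of the pathway, changed by -0.72 ± 0.17 and -0.54 ± 0.14 and did not pass in every alternative either, with adjusted p up to 0.102 and 0.149.

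The HMGCS1 promoter is shown because its group shares the CCAAT box, the site of NF-Y, a factor that acts together with SREBP2 at sterol genes. It runs from 160 to 11 bases before the start site on the minus strand of chr5:43313423-43313572 (RefSeq, GRCh38.p14), with both CCAAT matches in capitals, read on the opposite strand.
HMGCS1: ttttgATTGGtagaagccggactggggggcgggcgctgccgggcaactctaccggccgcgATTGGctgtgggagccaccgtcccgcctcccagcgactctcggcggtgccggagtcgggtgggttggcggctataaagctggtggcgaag
CCAAT on either strand was present in 16 of the 18 sterol genes with a promoter in the table and in 42.6% of the 10173 tested genes with one.

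Several receptors for lipoproteins, debris and dying cells rose. Of 21 scavenger and endocytic receptors tested, 9 rose and 0 fell (3 fell at an unadjusted p under 0.05 and 2 by DESeq2), with a median of 0.63. STAB1, an endocytic receptor of resident macrophages, had 390.3, 520.1 and 615 CPM in the FB+MF libraries, against 30.6, 50.9 and 30.9 CPM in the MF libraries (3.79 ± 0.22, adjusted p = 3.12e-07). CD163, the haemoglobin-haptoglobin receptor, had 2311, 2308 and 2527 CPM in FB+MF, against 1069, 1185 and 873 CPM in MF (1.22 ± 0.13, adjusted p = 7.94e-05). CD36, a receptor for oxidised lipoproteins and fatty acids, had 1514, 1593 and 1530.1 CPM in FB+MF, against 698, 694 and 729.6 CPM in MF (1.16 ± 0.09, adjusted p = 7.56e-06). No MF library reached an FB+MF library in any of these 3 genes. LRP1, a large receptor for apolipoproteins and proteases, changed by 0.89 ± 0.09 (adjusted p = 2.90e-05), and MARCO, which binds particles and bacteria, by 1.54 ± 0.20 (adjusted p = 3.27e-04). LYVE1, a hyaluronan receptor of resident cardiac macrophages, stayed low but separate, at 3.22, 5.81 and 11.2 CPM in FB+MF and 0.605, 0.878 and 0.583 CPM in MF (3.25 ± 0.44, adjusted p = 4.17e-04).

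Of 21 efferocytosis genes tested, which serve the uptake of dying cells, 10 rose and 0 fell (1 fell at an unadjusted p under 0.05, 0 by DESeq2), with a median of 0.47, and some of them are also scavenger receptors. PROS1, protein S, which bridges dying cells to macrophage receptors and also slows clotting, had 136, 139 and 149 CPM in FB+MF, against 51.7, 69.1 and 64 CPM in MF (1.24 ± 0.13, adjusted p = 4.47e-05). ITGB3, an integrin chain that binds matrix and dying cells, had 90.5, 67.6 and 59.6 CPM in FB+MF, against 13.1, 24.4 and 18.8 CPM in MF (1.98 ± 0.22, adjusted p = 7.94e-05). Both genes separated the groups in every library. MERTK, the main engulfment receptor of macrophages, had 111, 125 and 131 CPM in FB+MF and 102, 104 and 95.4 CPM in MF in groups that did not overlap, and did not pass (adjusted p = 0.133). It lies outside the rule for named genes and was picked after its value was seen.

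**Figure D2:**
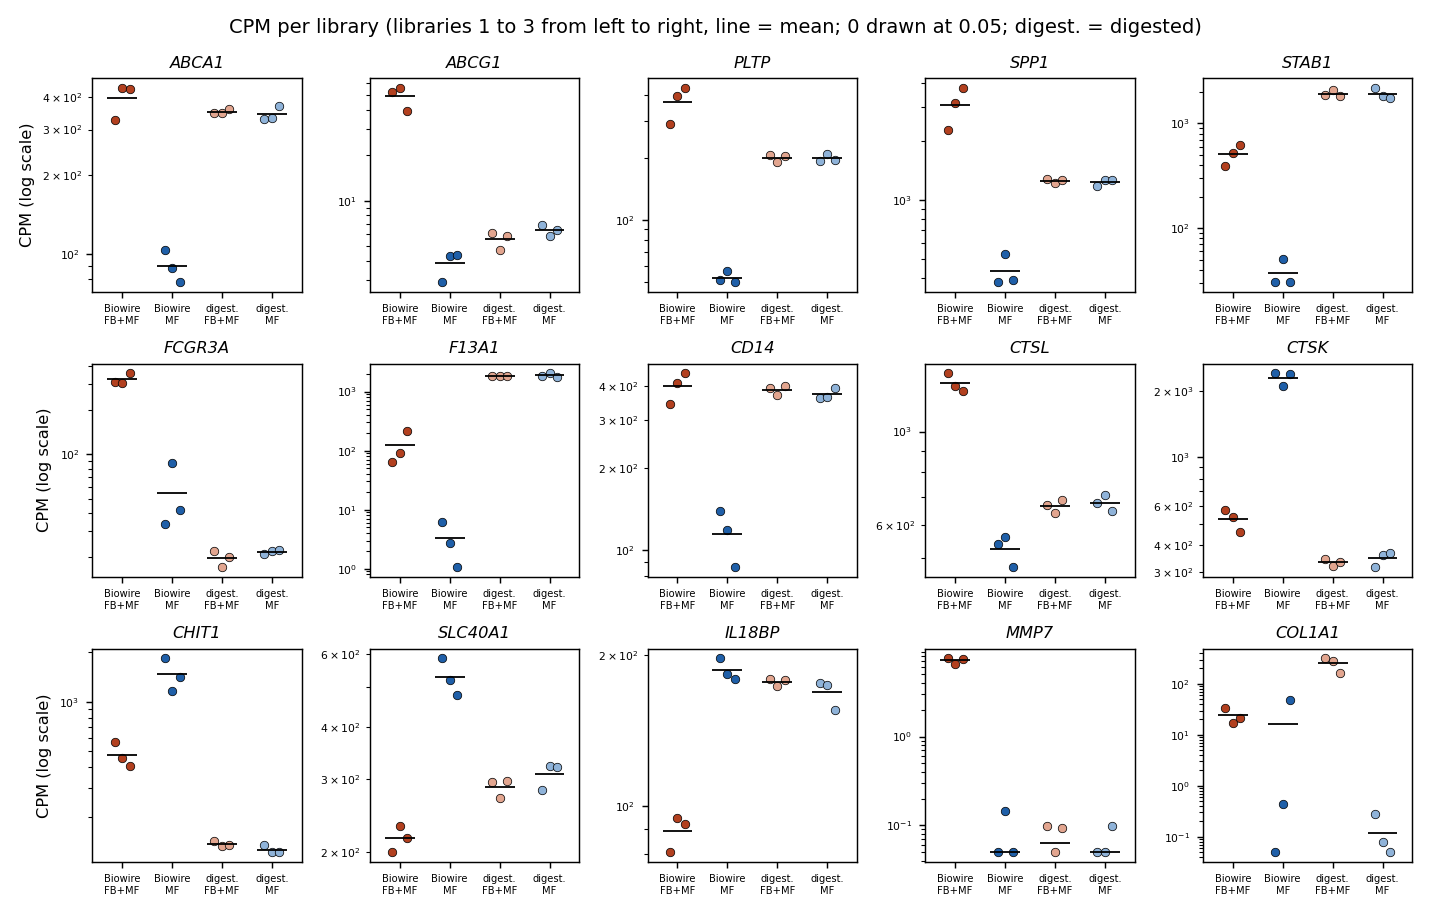
CPM of 15 genes in each library on a log axis, with Biowire FB+MF, Biowire MF, digested FB+MF and digested MF macrophages from left to right, points for the 3 libraries and a line at the mean. CTSK, CHIT1, SLC40A1 and IL18BP lie lower in all 3 Biowire FB+MF libraries than in the MF libraries, COL1A1 overlaps in the Biowires, where MF library 3 is the highest, and the other genes lie higher. The digested groups overlap in most panels and are far apart in COL1A1.

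Of 18 lipid-associated macrophage genes tested, 7 rose and 2 fell, with a median of 0.36. SPP1, osteopontin, a secreted matrix-binding protein of lipid-laden and scar macrophages, had 2298, 3133 and 3753 CPM in FB+MF, against 380.4, 532 and 390.4 CPM in MF (2.85 ± 0.17, adjusted p = 3.92e-07). FABP4, a fatty acid carrier, had 50.1, 49 and 36.3 CPM in FB+MF, against 5.44, 4.17 and 6.99 CPM in MF (3.07 ± 0.30, adjusted p = 2.90e-05), and PLIN2, the coat of lipid droplets, changed by 0.73 ± 0.09 (adjusted p = 1.81e-04). SOAT1, which esterifies cholesterol for storage, fell to 334, 302 and 274 CPM in FB+MF, against 530.4, 479 and 512 CPM in MF (-0.71 ± 0.11, adjusted p = 9.51e-04), while NCEH1, which frees stored cholesterol ester, changed by 0.56 ± 0.09 (adjusted p = 0.00236). The groups did not overlap for SPP1, FABP4 or SOAT1.

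Some genes of sugar metabolism rose, in that 9 of 29 genes of glycolysis and hypoxia were called higher and 0 lower (0 at an unadjusted p under 0.05 and 0 by DESeq2), with a median of 0.28. SLC2A3, a high-affinity glucose transporter, had 78.6, 75.6 and 75.9 CPM in FB+MF, against 7.02, 18.5 and 12 CPM in MF (2.62 ± 0.23, adjusted p = 1.34e-05). The lactate exporter SLC16A3, the enzymes GAPDH and LDHA, and hexokinase HK1 changed by 0.88 ± 0.12, 0.69 ± 0.09, 0.68 ± 0.10 and 0.64 ± 0.11. Of 40 oxidative phosphorylation genes 0 passed (0 at an unadjusted p under 0.05 and 0 by DESeq2), with a median of -0.04.

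Opsonin receptors and complement genes moved in both directions. Of 22 complement genes 9 rose and 1 fell, with a median of 0.41. The 3 chains of C1q, the opening component of the classical pathway that macrophages make themselves, rose together: C1QA by 1.80 ± 0.26, C1QB by 0.74 ± 0.12 and C1QC by 0.64 ± 0.11. VSIG4, a complement receptor of tissue macrophages, had 239, 266 and 334 CPM in FB+MF, against 45.3, 34.5 and 17.4 CPM in MF (3.14 ± 0.27, adjusted p = 1.11e-05). CR1, the receptor for C3b, had 163, 221 and 245 CPM in FB+MF, against 52, 55.2 and 35.2 CPM in MF (2.17 ± 0.18, adjusted p = 1.00e-05). CFD, factor D of the alternative pathway, was the gene that fell, with 239.7, 237 and 263 CPM in FB+MF, against 478, 392 and 419.9 CPM in MF (-0.77 ± 0.12, adjusted p = 0.00126). Each of VSIG4, CR1 and CFD separated the groups. The count of complement genes that fell was 2 without FB+MF library 1 or 3 and 4 by DESeq2.

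Of 9 Fc gamma receptor genes, which bind antibody, 4 rose and 1 fell, with a median of 0.21. FCGR3A had 312, 305 and 357 CPM in FB+MF, against 33.5, 88.2 and 41.8 CPM in MF (2.60 ± 0.26, adjusted p = 3.36e-05). FCGR1A, the high-affinity receptor, changed by 1.53 ± 0.13 (adjusted p = 1.25e-05), and its near-identical copy FCGR1B by 1.71 ± 0.28, so reads of the pair may have been split between them. FCGR2B, the inhibitory receptor, fell to 78.6, 98.9 and 108 CPM in FB+MF, against 176, 164 and 155 CPM in MF (-0.76 ± 0.12, adjusted p = 0.00178), while the activating FCGR2A changed by 0.61 ± 0.11 (adjusted p = 0.00353). No library of one group reached the other in FCGR3A or FCGR2B.

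Proteases moved in both directions and held the largest loss and the largest gain of mean CPM among the named genes. Of 24 matrix protease and inhibitor genes 8 rose and 3 fell, with a median of 0.47. CTSK, cathepsin K, the collagen-degrading protease of osteoclasts and the named gene with the largest loss of mean CPM, had 576, 538 and 457 CPM in the FB+MF libraries, against 2411, 2105 and 2381 CPM in the MF libraries (-2.10 ± 0.11, adjusted p = 1.20e-07). CTSB, cathepsin B of the lysosome, had 12229, 12409.9 and 12952 CPM in FB+MF, against 9207, 8241 and 7307 CPM in MF (0.63 ± 0.11, adjusted p = 0.00234). CTSL, cathepsin L, had 1377, 1287 and 1252 CPM in FB+MF, against 540.0, 560.5 and 475 CPM in MF (1.35 ± 0.10, adjusted p = 4.16e-06). CTSK was lower and CTSB and CTSL were higher in every FB+MF library than in any MF library. MMP12, the macrophage elastase, had 127, 105 and 139 CPM in FB+MF, against 16.1, 34.4 and 14.7 CPM in MF (2.53 ± 0.25, adjusted p = 3.27e-05). MMP7, matrilysin, had 7.56, 6.56 and 7.40 CPM in FB+MF, against 0, 0.146 and 0 CPM in MF. That is 246 counts over the FB+MF group and 2 over the MF group, a ratio of 116 with a 95% counting interval of 31.8 to 963, which covers counting error only (adjusted p = 4.55e-04). A2M, a broad protease inhibitor, fell to 1656, 2086 and 1886 CPM in FB+MF, against 4438, 2911 and 2834 CPM in MF (-0.83 ± 0.17, adjusted p = 0.00801).

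Of 22 genes of the MITF and osteoclast type, 5 fell and 3 rose, with a median of -0.07. Beside CTSK those that fell included TRPM1, an ion channel gene under MITF in pigment cells, with 0.563, 0.844 and 0.902 CPM in FB+MF, against 9.80, 8.12 and 13.6 CPM in MF (-3.72 ± 0.47, adjusted p = 5.86e-04). RAB27A, which moves secretory lysosomes, changed by -1.22 ± 0.21 (adjusted p = 0.00283), and ATP6V0D2, a proton pump subunit of osteoclasts, by -0.53 ± 0.10 (adjusted p = 0.00496). Those that rose included ITGB3 (1.98, adjusted p = 7.94e-05) and OSCAR (2.28, adjusted p = 0.0204, up to 0.0848 over the alternatives). MITF itself had 111, 118 and 119 CPM in FB+MF and 106, 126 and 122 CPM in MF (adjusted p = 0.979), overlapping groups, and was picked after its value was seen. CHIT1, chitotriosidase, an enzyme of lipid-laden macrophages, fell to 572, 459 and 407 CPM in FB+MF, against 1836, 1172 and 1422 CPM in MF (-1.59 ± 0.26, adjusted p = 0.00207). The secreted phospholipase PLA2G2D, which also restrains immune responses, fell by 1.87 ± 0.25 (adjusted p = 3.55e-04), and PTGDS, prostaglandin D synthase, fell by 1.80 ± 0.22 (adjusted p = 2.25e-04). SLC40A1, ferroportin, the iron exporter, had 199.6, 231 and 216 CPM in FB+MF, against 587, 519.9 and 478 CPM in MF (-1.26 ± 0.12, adjusted p = 2.24e-05). SLC11A1, which pumps iron out of phagosomes, went the other way, with 92.9, 106 and 99 CPM in FB+MF, against 4.60, 6.88 and 10.6 CPM in MF (3.78 ± 0.19, adjusted p = 1.02e-07).

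Coagulation and adhesion genes that passed were all higher. Of 13 coagulation and plasminogen genes tested 6 rose and 0 fell (0 at an unadjusted p under 0.05 and 0 by DESeq2), with a median of 1.01. F13A1, the fibrin cross-linking factor XIII chain of resident macrophages, had 65.3, 91.1 and 217 CPM in FB+MF, against 6.17, 2.71 and 1.07 CPM in MF (5.32 ± 0.51, adjusted p = 2.41e-05). The FB+MF libraries differed from each other as well, and each lay above every MF library. The fold change of F13A1 was 4.66 without FB+MF library 3 and 6.04 without MF library 1. PLAUR, the urokinase receptor, changed by 1.52 ± 0.15 (adjusted p = 3.53e-05), and SERPINA1, the elastase inhibitor antitrypsin, by 1.01 ± 0.18 (adjusted p = 0.00358). Of 17 integrin and adhesion genes 10 rose and 0 fell (1 fell at an unadjusted p under 0.05 and 1 by DESeq2), with a median of 0.68. CD44, the hyaluronan receptor, had 977, 855 and 839.9 CPM in FB+MF, against 475, 476 and 528 CPM in MF (0.89 ± 0.10, adjusted p = 6.05e-05). ITGB2, the shared chain of the leukocyte integrins, had 1700.1, 1697 and 1699 CPM in FB+MF, against 1069, 971 and 899 CPM in MF (0.82 ± 0.10, adjusted p = 2.49e-04). Each of these genes separated the groups, and ITGB2 varied little among the FB+MF libraries. ICAM1, its ligand, changed by 0.81 ± 0.12 (adjusted p = 0.00101).

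**Figure D3:**
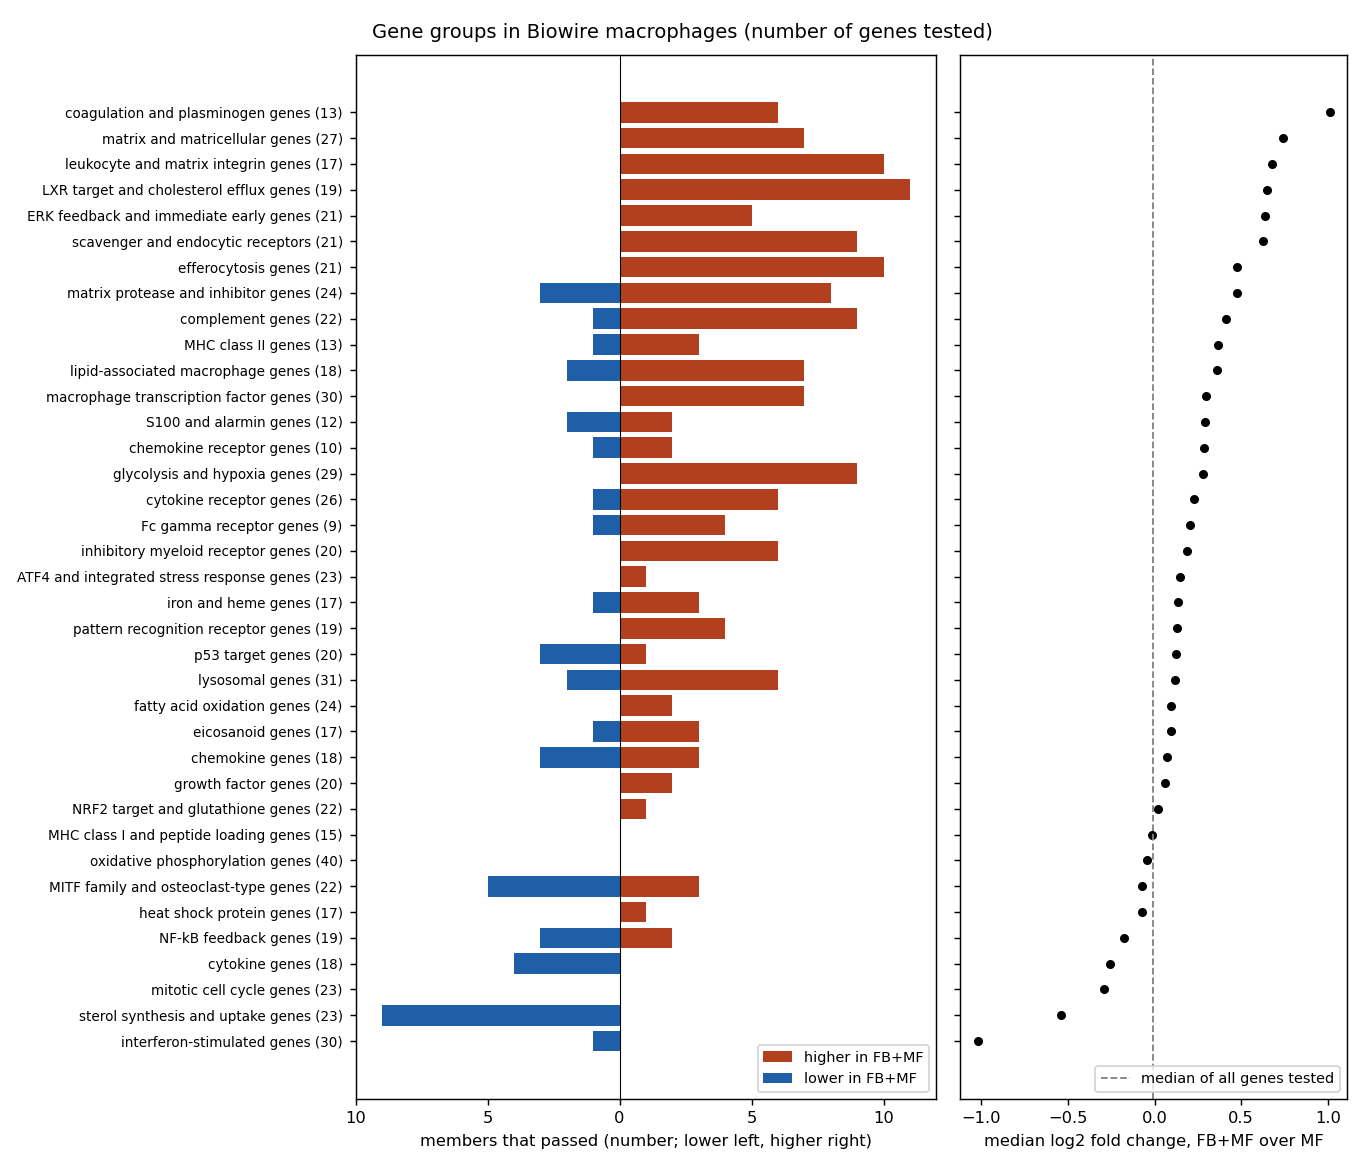
Gene groups on the y axis with the number of genes tested in brackets. The left panel shows how many members passed higher (red, to the right) or lower (blue, to the left) in FB+MF, and the right panel the median log2 fold change of FB+MF over MF, with a dashed line at the median of all genes tested. LXR target genes have 11 of 19 members higher and integrin and adhesion genes 10 of 17, and sterol genes have 9 of 23 lower, a count that was 0 to 12 over the alternatives.

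Secreted signals were lower or mixed. Of 18 cytokine genes tested 4 fell and 0 rose (3 rose at an unadjusted p under 0.05 and 2 by DESeq2), with a median of -0.26, and the list summed to 284 to 307 CPM in FB+MF and 518 to 666 CPM in MF. IL18BP, the decoy that neutralises interleukin 18, had 80.7, 94.6 and 92.1 CPM in FB+MF, against 197, 184 and 179.6 CPM in MF (-1.04 ± 0.11, adjusted p = 4.79e-05). IL16, a chemoattractant for CD4 cells, had 66.9, 85.4 and 71.9 CPM in FB+MF, against 207, 151 and 168 CPM in MF (-1.20 ± 0.15, adjusted p = 2.28e-04). In both genes every FB+MF library lay below every MF library. TNF and TNFSF10 also fell, by 1.48 ± 0.37 and 2.72 ± 0.73, but adjusted p reached 0.177 and 0.181 over the alternatives. TNFSF10 was -3.67 without FB+MF library 1 and -1.94 without MF library 2. The count of cytokine genes that fell was 2 without FB+MF library 2, 2 without MF library 3 and 2 with the replicate number as a block. Of 18 chemokine genes 3 rose and 3 fell, with a median of 0.07. CCL2, which draws monocytes, had 112, 98.4 and 110.1 CPM in FB+MF, against 32.5, 74.5 and 49.6 CPM in MF (1.07 ± 0.21, adjusted p = 0.00804). CXCL10, which is induced by interferon, had 4.10, 1.12 and 3.07 CPM in FB+MF, against 6.53, 242 and 126 CPM in MF (-5.42 ± 1.04, adjusted p = 0.00612), with MF library 1 far below MF libraries 2 and 3, and it was -4.49 without MF library 2. The chemokine genes that fell numbered 1 without FB+MF library 2 or 3, 1 without MF library 2 or 3, and 5 without MF library 1.

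Among cytokine receptors 6 of 26 rose and 1 fell, with a median of 0.23. With libraries 2 and 3 of each group alone, a setting chosen after seeing the data, 10 rose. IL2RA, the alpha chain of the interleukin 2 receptor, had 6.20, 4.12 and 16.7 CPM in FB+MF, against 0, 0.220 and 0.388 CPM in MF (5.33 ± 0.65, adjusted p = 1.90e-04). IL7R, the interleukin 7 receptor, had 78.5, 21.4 and 20.7 CPM in FB+MF, against 0, 1.83 and 1.46 CPM in MF (5.11 ± 0.64, adjusted p = 2.41e-04), with FB+MF library 1 the highest. Neither gene overlapped between the groups. IL2RA was 4.56 without FB+MF library 3 and 5.93 without MF library 3, and IL7R was 4.18 without FB+MF library 1. IL1R1, the interleukin 1 receptor, fell to 163, 133 and 146 CPM in FB+MF, against 272, 255 and 274 CPM in MF (-0.82 ± 0.12, adjusted p = 7.94e-04).

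Interferon-stimulated genes varied widely between the libraries of each group. All 30 tested had a negative fold change, with a median of -1.02, yet 1 fell and 0 rose (16 fell at an unadjusted p under 0.05, 0 fell and 0 rose by DESeq2, and 0 rose at an unadjusted p under 0.05). They summed to 6521, 2023 and 2296 CPM in FB+MF libraries 1, 2 and 3, against 3353, 10704 and 7436 CPM in MF libraries 1, 2 and 3. FB+MF library 1 was thus high within its group and MF library 1 low within its own, and the groups overlapped. ISG15, a ubiquitin-like protein, had 353, 70.5 and 66.5 CPM in FB+MF, against 111, 704 and 464 CPM in MF (adjusted p = 0.354). MX1, an antiviral GTPase, had 539, 138 and 179 CPM in FB+MF, against 311, 858 and 601 CPM in MF (adjusted p = 0.273). Both were picked after their values were seen, and XAF1, the member that passed, changed by -1.14 ± 0.31 (adjusted p = 0.044, up to 0.171 over the alternatives). Without FB+MF library 1, 25 of the 30 fell, without MF library 1, 8 fell, and with libraries 2 and 3 alone 30 fell, a setting chosen after seeing the data. Without any other single library 0 fell, and 11 fell with no filter on low counts.

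**Figure D4:**
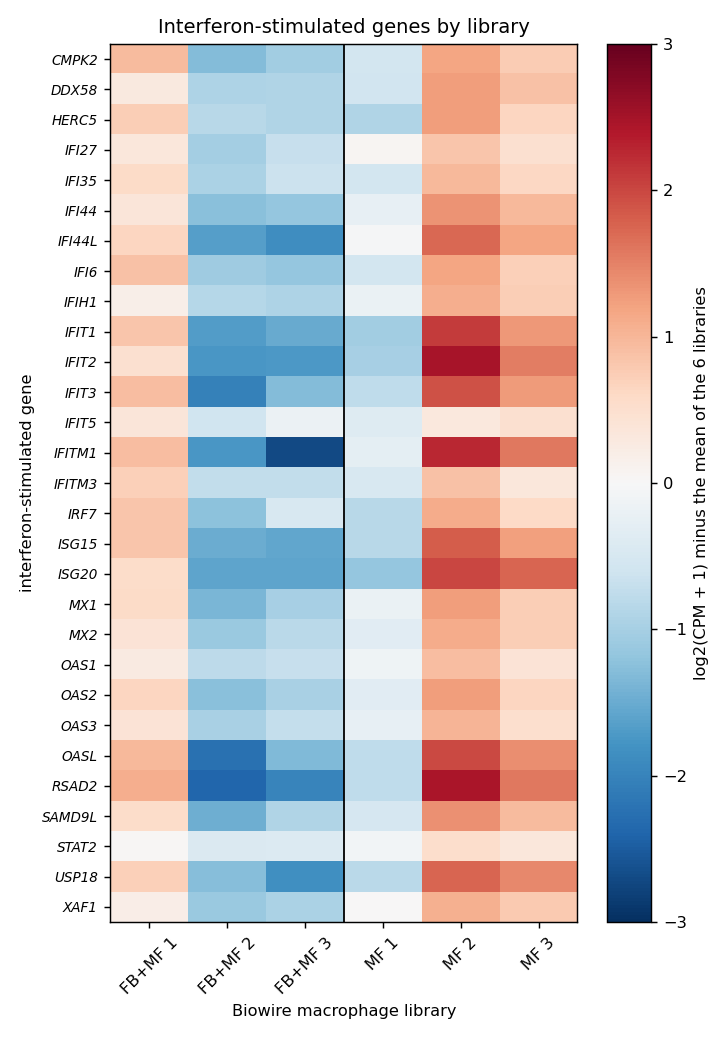
Interferon-stimulated genes (29 of the 30 tested, rows) in the 6 Biowire libraries (columns, FB+MF libraries left of MF libraries), coloured by log2(CPM + 1) minus the mean of the 6 libraries. FB+MF library 1 is above the mean and MF library 1 below MF libraries 2 and 3, so the groups overlap.

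The ISG15 promoter is shown because most of these genes share its element, the interferon-stimulated response element. It runs from 160 to 11 bases before the start site on the plus strand of chr1:1013337-1013486 (RefSeq, GRCh38.p14), with capitals over 2 overlapping matches to TTTC and TTTC separated by 2 bases, read on the opposite strand.
ISG15: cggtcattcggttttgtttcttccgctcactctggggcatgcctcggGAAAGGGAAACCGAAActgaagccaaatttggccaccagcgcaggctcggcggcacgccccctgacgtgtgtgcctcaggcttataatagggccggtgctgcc
This motif on either strand was present in 16 of the 22 interferon-stimulated genes with a promoter in the table and in 4.22% of the 10173 tested genes with one.

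The counts of transcription factors and signalling genes that rose rest on single libraries. Of 30 macrophage transcription factors 7 rose and 0 fell (3 fell at an unadjusted p under 0.05, 0 by DESeq2), with a median of 0.30. CEBPB, a factor of inflammatory and lipid responses, had 159, 104 and 110.0 CPM in FB+MF, against 36.4, 62.5 and 55 CPM in MF (1.32 ± 0.26, adjusted p = 0.00642). The count was 4 without FB+MF library 2 or 3 and 3 without MF library 2 or 3. Of 21 ERK feedback and immediate early genes 5 rose and 0 fell (0 at an unadjusted p under 0.05 and 0 by DESeq2), with a median of 0.64. PHLDA1, induced by growth factor signals, had 17.1, 14.8 and 12.7 CPM in FB+MF, against 4.60, 3.44 and 4.47 CPM in MF (1.89 ± 0.19, adjusted p = 3.81e-05). ETV5, an ERK-driven transcription factor, changed by 1.02 ± 0.14 (adjusted p = 6.35e-04), and SPRED1, an ERK inhibitor, by 0.84 ± 0.13 (adjusted p = 0.00155). The ERK count was 3 without FB+MF library 1 or 3 and 3 without MF library 2 or 3, and 8 with the compared groups alone. Among 23 mitotic cell cycle genes 0 passed (3 fell at an unadjusted p under 0.05, 0 by DESeq2), with a median of -0.29.

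Genes of other functions also rose or fell. CD93, an endothelial and myeloid surface glycoprotein that is also counted among the complement genes above, had 9.98, 9.65 and 9.20 CPM in FB+MF, against 0.363, 0.220 and 0 CPM in MF (5.63 ± 0.35, adjusted p = 5.22e-07). S100A9, a calcium-binding alarmin of monocytes, had 102, 138 and 143 CPM in FB+MF, against 9.92, 16.8 and 7.09 CPM in MF (3.51 ± 0.25, adjusted p = 2.50e-06). ALOX5AP, the partner of 5-lipoxygenase in leukotriene synthesis, had 56 counts over the FB+MF group and 0 over the MF group, at least 17.6-fold higher in FB+MF against a floor of 3 counts over the group (adjusted p = 1.81e-04). ALOX5 itself had 17.6, 33.3 and 40.5 CPM in FB+MF, against 3.99, 4.24 and 2.04 CPM in MF (3.17 ± 0.30, adjusted p = 2.66e-05). The large falls beside CXCL10 and TRPM1 included SYNE2, which anchors the nucleus, with 9.01, 2.91 and 5.59 CPM in FB+MF, against 35.1, 74.3 and 98.2 CPM in MF (-3.50 ± 0.39, adjusted p = 8.92e-05). SFRP4, a secreted Wnt inhibitor, fell by 3.29 ± 0.51 (adjusted p = 0.00131), and DAPL1 fell by 3.17 ± 0.27 (adjusted p = 1.00e-05). In each of the genes of this paragraph the groups did not overlap, which the rule for the largest rises and falls required of CD93, SYNE2, SFRP4 and DAPL1. S100A9, ALOX5AP and ALOX5 were named by their gene groups, where it was not required.

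Some matrix genes rose in the Biowires and most rose in the digested controls. Of 27 matrix and matricellular genes 7 rose in the Biowire FB+MF macrophages and 0 fell (0 at an unadjusted p under 0.05 and 0 by DESeq2), with a median of 0.74, and 12 rose without MF library 3. In the digested FB+MF controls, 19 of 25 were higher than in digested MF, with a median of 3.83, against 1.6% of all genes called higher there. COL1A2, a collagen I chain, had 118, 126 and 119 CPM in Biowire FB+MF, against 47.8, 54.4 and 56.1 CPM in Biowire MF (1.23 ± 0.12, adjusted p = 2.86e-05), and its digested difference was 1.34 ± 0.28 (adjusted p = 0.0325). MFAP5, a microfibril protein, had 44.3, 33.9 and 39.9 CPM in Biowire FB+MF, against 6.78, 6.73 and 6.89 CPM in Biowire MF (2.57 ± 0.20, adjusted p = 4.37e-06), with a digested difference of 2.90 ± 0.54 (adjusted p = 0.0146). The groups did not overlap in either gene in the Biowires. PCOLCE2, a procollagen processing enhancer, had 26.6, 21.2 and 18 CPM in FB+MF, against 0, 1.24 and 0.388 CPM in MF (5.12 ± 0.39, adjusted p = 3.66e-06, and 6.63 without MF library 2). In the digested cells it was low, with 0.195, 0.194 and 0.462 CPM in FB+MF and 0, 0 and 0.0987 CPM in MF. The part of fibroblast RNA in the matrix genes was not tested.

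In the digested controls, 207 of 12960 genes (1.6%) were called in FB+MF against MF, all higher, and 0 lower (0 lower by DESeq2, and 672 genes in either direction at an unadjusted p under 0.05). With 1 digested library left out in turn the count was 123 to 180 over the FB+MF libraries and 99 (98 higher, 1 lower) to 132 over the MF libraries. Leaving the 207 genes out kept 547 of the 562 genes that rose in the Biowires and 297 of the 298 that fell. Only 137 of the 207 were tested in the Biowires, so the others could not change these counts. Of the genes tested in both tables, 792 passed in Biowires alone, 121 in digested cells alone and 16 in both. These 16 were among the 137, beside 6.16% of all genes called in the Biowires. The difference of the 2 differences was tested as an interaction, which called 696 of 14381 genes (4.84%), 391 with the larger FB+MF value in Biowires (2.72%) and 305 with the smaller (2.12%). ABCG1 had an interaction of 3.89 ± 0.25 (adjusted p = 8.27e-09), SPP1 of 2.84 ± 0.20 (adjusted p = 1.83e-08) and CTSK of -2.02 ± 0.16 (adjusted p = 8.78e-08). For COL1A1 the digested cells had 316, 282 and 167 CPM in FB+MF, against 0.280, 0.0786 and 0 CPM in MF, while the Biowires had 34.4, 17 and 21 CPM in FB+MF, against 0, 0.439 and 48.6 CPM in MF. Its interaction of -10.28 ± 1.90 (adjusted p = 0.00207) rests on Biowire MF library 3, and without that library it was -4.49 ± 2.90 and did not pass (adjusted p = 0.536). Without that library COL1A1 rose in the Biowires too (6.44, adjusted p = 4.51e-05), as did POSTN, periostin (adjusted p = 2.76e-04).

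**Figure D5:**
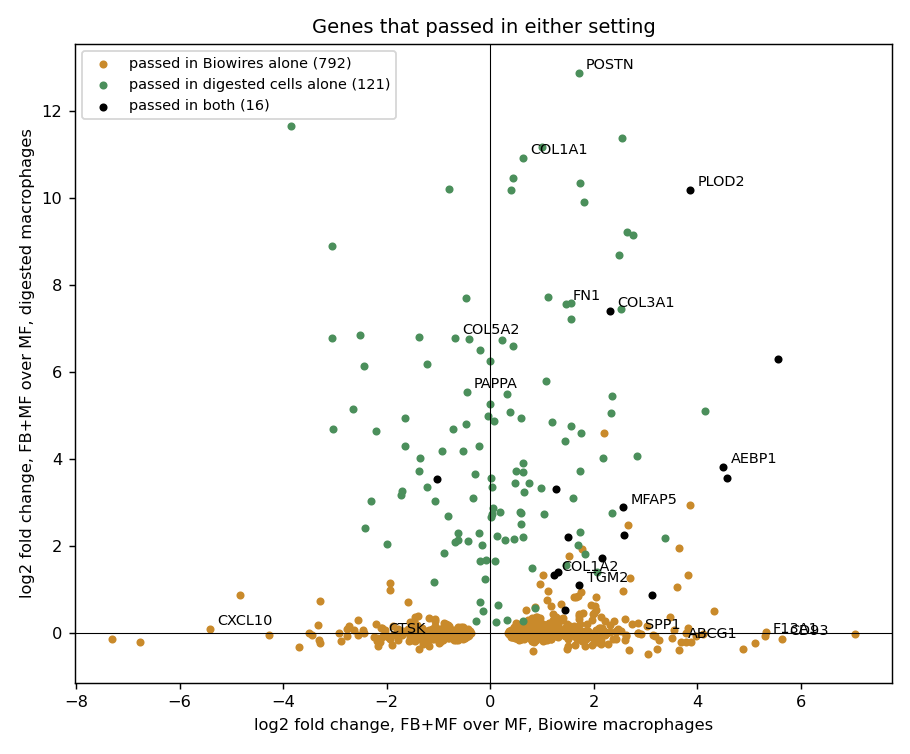
Log2 fold change of FB+MF over MF in Biowire macrophages (x axis) and in digested macrophages (y axis) for genes that passed in either. The 792 genes that passed in Biowires alone lie mostly along the x axis, and the 121 that passed in digested cells alone, among them COL1A1 and POSTN, lie above it. Both of these also passed in the Biowires without MF library 3.

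In macrophages from CM+FB+MF Biowires some of these genes moved further in the same direction and others moved the opposite way. CM+FB+MF was not tested against MF. Their comparison with FB+MF uses the same FB+MF libraries as above, so its values are only set side by side here, and it called 4949 genes (35.5% of 13952). STAB1 had 5971, 4609 and 4702 CPM in the CM+FB+MF libraries (3.29 ± 0.21 against FB+MF, adjusted p = 1.35e-07), F13A1 had 1430.3, 1285 and 1291 CPM (3.39 ± 0.41) and SPP1 had 12257, 13229 and 14642 CPM (2.09 ± 0.17), each above FB+MF. CTSK had 76.4, 79.8 and 78 CPM in CM+FB+MF (-2.79 ± 0.12, adjusted p = 3.34e-09) and CHIT1 26.7, 16 and 9.59 CPM (-4.81 ± 0.31), each below FB+MF, which was itself below MF. Other genes that had risen in FB+MF were lower in CM+FB+MF. CD36 had 702, 841 and 874 CPM there (-0.98 ± 0.09, adjusted p = 3.81e-06), MARCO 40.1, 29.8 and 31.1 CPM (-3.23 ± 0.22) and FABP4 3.50, 9.33 and 4.73 CPM (-2.98 ± 0.30). MMP7 had 0 counts over the CM+FB+MF group, at least 53.9-fold lower than in FB+MF against the same floor. FCGR2B, which fell in FB+MF, had 721, 767 and 873 CPM in CM+FB+MF (3.01 ± 0.13, adjusted p = 3.94e-09).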

How the data were processed

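RNA was sequenced from sorted macrophages, and the authors deposited whole-number counts per gene. The submitters' processing notes name STAR 2.7.9a, HTSeq 0.11.0, DESeq2, R 4.3.2 and hg19, and give no strand setting for the counting, so overlapping or antisense genes may share counts. The normalized and cardiomyocyte tables were not used.

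Biowire and digested macrophages are in separate count tables, so levels are set side by side only within a table. The digested columns give a group and a number but share their names with the Biowire labels, so they were tied to groups only, and their number was used only as a block. Within each table, genes were kept by edgeR's filterByExpr, scaled by TMM and tested by edgeR 4.0.16 (R 4.3.3) with a two-sided quasi-likelihood F test over all groups of the table, at Benjamini-Hochberg adjusted p under 0.05. The interaction was fitted on the genes both tables share. CPM is the count per 1e6 counts of the library, without TMM. Summed markers were compared as log2(CPM + 1) by an exact permutation test. Intervals (95%, exact) and the floor of 3 counts over a group cover counting error only.

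The members and gene lists were chosen with earlier results of these data known. The text names genes from the 12 largest rises and 12 largest falls among called genes with libraries that did not overlap and at least 5 CPM, the 12 largest gains and 12 largest losses of mean CPM among them, up to 6 called genes per gene group by smallest p, the 6 largest interactions each way, and CD14, PTPRC and CSF1R. Genes outside the rule are marked as picked after their values were seen.

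Results were recomputed with DESeq2 1.42.0, with RLE size factors, without the filter, with a replicate block, on the compared groups alone, with each library left out in turn and with a minimum of 1 on the log2 scale. Marker sums were recomputed with a pseudocount of 10 and without their leading gene. Libraries 2 and 3 alone were added after seeing the data. Promoters came from RefSeq (GRCh38.p14). The statistics were tested on simulated data. Some genes counted in the lists are not reported here by name.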

Additional observations from a re-analysis of the deposited data

Results flagged for a closer look

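The difference of FB+MF from MF was itself different between Biowire and digested macrophages for 696 genes, by edgeR's interaction test with Benjamini-Hochberg adjustment. On the log2 scale, as Biowire minus digested, the largest positive values among called genes of at least 5 CPM in a Biowire group were 5.77 for CD93, 5.4 for F13A1, 5.34 for IL7R, 5.31 for IL2RA, 5.25 for DCHS1 and 4.06 for IGLON5. The largest negative values were -11.16 for POSTN, -10.28 for COL1A1, -7.48 for COL5A2, -6.10 for FN1, -6.02 for PAPPA and -5.51 for CXCL10. Because POSTN had 0 counts in all digested MF libraries, the size of its value is set by the fit, and its place in this order is uncertain. POSTN, COL1A1, COL5A2, FN1 and PAPPA were higher in digested FB+MF than in digested MF. MF library 3 of the Biowires held their transcripts too, at 5.34 CPM for POSTN and 48.6 CPM for COL1A1, and both interactions rest on that library. Without it the interaction of COL1A1 was -4.49 (adjusted p = 0.536), and that of POSTN did not pass and has no usable value, because POSTN had 0 counts in all other Biowire and digested MF libraries. Without it FN1 was -4.86, PAPPA -5.23, IGLON5 4.64 and IL2RA 5.91. Without FB+MF library 3 of the Biowires F13A1 was 4.74 and IL2RA 4.53, without FB+MF library 1 IL7R was 4.4, without MF library 1 F13A1 was 6.1, and without MF library 2 CXCL10 was -4.58 and IL7R 5.93. All of these passed except COL1A1 and POSTN. Of the 161 other named genes, 119 were called in the interaction, beside 4.84% of all genes tested. Nearly all of them were named because they passed in the Biowire comparison, which is part of the interaction. A high share therefore follows from that choice.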

How the results depend on the processing

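Leaving out 1 Biowire library at a time gave 549 to 844 genes called between FB+MF and MF, 359 to 548 higher and 168 to 296 lower. DESeq2 called 1211 genes (459 lower), and libraries 2 and 3 alone, a setting chosen after seeing the data, gave 1288 (601 lower). A minimum of 1 on the log2 scale left 389 genes, 268 higher and 121 lower. The digested count was 99 to 180 with 1 library left out. The counts for CM+FB+MF against FB+MF and for the interaction stayed within 1.5 times their main value under every alternative run. Of the 166 named genes that passed, 121 passed under all 12 settings. They were named for a small p or a large change, so this share does not hold for all called genes. Of the 860 called genes, 526 were called again without MF library 3 and 538 without FB+MF library 2. The replicate numbers were not taken to pair the samples, since not every same-numbered pair had a correlation of deviations over 0.1. That of FB+MF with MF was r = 0.067, 0.0031 and 0.058 for numbers 1, 2 and 3, that of CM+FB+MF with FB+MF was 0.207, 0.0635 and 0.072, and with MF 0.229, 0.0854 and 0.0898, so that number 1 deviated together most. In the digested cells it was -0.016, -0.087 and 0.041. Not every library correlated best with its own number. With the replicate number as a block, 861 genes were called (564 higher, 297 lower), 791 of them among the 860. The block gave 5003 calls for CM+FB+MF against FB+MF, 187 for the digested cells and 645 for the interaction. Signs turned only in values that had not passed: COL1A1 was -0.26 with libraries 2 and 3 alone, PTPRC 0.0051 with no filter, and with 1 library left out PAPPA ranged from -0.82 to 0.37 and PTPRC from -0.058 to 0.054. The log2 difference of summed cardiomyocyte markers was -0.70 to 0.036 with 1 library left out. Without their most abundant gene, pluripotency markers were at 0.36, granulocyte markers at -0.40 and erythroid markers at -0.22, and erythroid markers ranged from -0.22 to 0.26 with 1 library left out. The causes were not tested. With 3 libraries a group, exact tests cannot pass 0.05.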
